A study of Homo sapiens with 17 samples.

Results

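The p53 regulators and target genes described here are 30 human genes: 3 regulators of the p53 protein and 27 genes that p53 is known to switch on, for cell cycle arrest, cell death, DNA repair, metabolism or secretion. They and the other gene lists below were chosen by name, with earlier results of these data known. The 30 were matched by symbol to Ensembl identifiers. All 30 were found, among 58302 identifiers in tables of read counts and among 28285 in tables of TPM (transcripts-per-million) values, and all 30 had enough reads to be tested in every comparison.

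RNA was sequenced from descendants of H1, a human embryonic stem cell line in wide use. Endothelial cells positive for eGFP under GATA2, which encodes a zinc-finger factor needed for blood formation from endothelium, had been derived with (VC+) or without (VC-) vitamin C, on which histone and DNA demethylating enzymes depend. For a course of 10 libraries the cells were re-plated and read at 0, 24, 36, 48 and 60 h, with 1 VC+ and 1 VC- library at each time. From 24 h on, the labels call the material a mixture of endothelial and blood cells, and they do not say whether vitamin C was still given after re-plating. The other libraries were 2 VC+ and 2 VC- libraries of the endothelial cells, called sorted cells below, and 3 single libraries from VC+ cultures, of blood cells in suspension at 96 h and at 60 h and of cells adhering to the plate at 60 h. All groups come from the 1 cell line, and the labels do not say whether libraries came from separate cultures, so spread between libraries may be technical.

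p53 is a transcription factor that is held at a low level by the ubiquitin ligase MDM2 and its relative MDM4, and that accumulates after DNA damage, replication stress and other insults. It then raises genes that stop the cell cycle, repair DNA, protect against oxidation or trigger apoptosis. MDM2 is itself such a gene, which closes a negative feedback loop. In blood formation p53 is known for limiting the growth and survival of stem and progenitor cells.

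The 13 tables with counts held 6214675 to 11058345 reads per library, which makes 1 read worth 0.0904 to 0.161 CPM, or counts-per-million. All 12 endothelial markers of a list were above 1 CPM in all 10 course libraries. The leukocyte marker PTPRC, which encodes CD45, was at 0 CPM in all 5 VC- libraries and at or below 0.290 CPM in the VC+ ones. PTPRC does not stand for the whole list of 12 leukocyte markers. In each course library 8 to 11 of these were at 1 CPM or more, and the 12 summed to 238 to 521 CPM of the library total. The stem cell genes POU5F1, NANOG and SOX2 were at or below 0.153 CPM in all 10. Others of the stem cell list were not silent: LIN28A was at 116 to 527 CPM and DPPA4 at 36.1 to 149.8 CPM. TDGF1 was at or below 1.67 CPM. For the sorted libraries no depth is known, and their tables list no PECAM1, the endothelial marker CD31. In them POU5F1 was at 4.68 and 14.6 TPM in VC+ replicates 1 and 2, and at 1.15 and 10.9 TPM in VC- replicates 1 and 2. NANOG and SOX2 were at or below 0.74 TPM in the sorted libraries. Titles and descriptions give vitamin C differently for 2 of these 4 libraries, and the titles were followed. Strand is not stated for the libraries, so that reads of genes overlapping on opposite strands cannot be told apart. This touches FAS and its neighbour ACTA2, with 2043 and 4960 reads over the 13 libraries, POLH and GTPBP2 with 1792 and 8415, XPC and LSM3 with 5120 and 4336, and MDM2 and CPM, a carboxypeptidase gene, with 13500 and 3608. MDM2 also overlaps an antisense gene with 2844 reads. Genes called below are touched too: TNFRSF10B with RHOBTB2 (30274 and 4598 reads), TP53INP1 with NDUFAF6 (12951 and 1478) and SESN1 with an antisense gene (4113 and 605). For TP53I3 and FAM228B the reads were 3341 and 793.

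p53 binds DNA as a tetramer at 2 copies of a palindromic half-site of 10 bases. Promoter windows of 300 bases, from 250 before to 50 after a gene's start, were available from RefSeq (GRCh38.p14) for 25 of the 30 genes, in 36 windows. GADD45A, PHLDA3, RRM2B, TNFRSF10B and TP53INP1 were not matched. A perfect match to the p53 half-site consensus, which reads the same on both strands, was present in 6 windows, those of AEN, DDB2, FAS, FDXR, PLK2 and SESN1, while 6.63% of 35116 windows of all genes held one. A full site, 2 half-sites at most 13 bases apart, was present in DDB2 alone of the 25 genes searched and in 0.0285% of all windows. Matches describe these letters and not binding. The sequences shown are the full site of DDB2, the half-sites of SESN1 and FDXR, both called lower with vitamin C below, and that of PLK2, the most abundant of the 30 genes. Capitals mark the half-sites, and sequences run from 5′ to 3′ on the gene's strand.
DDB2, chr11:47214724-47215023, plus strand: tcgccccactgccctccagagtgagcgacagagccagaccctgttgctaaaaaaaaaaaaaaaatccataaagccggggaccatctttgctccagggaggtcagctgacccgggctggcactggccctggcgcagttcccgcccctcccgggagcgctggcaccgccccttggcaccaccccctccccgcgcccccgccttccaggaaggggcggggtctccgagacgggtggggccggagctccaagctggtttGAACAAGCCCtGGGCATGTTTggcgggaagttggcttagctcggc
SESN1, chr6:109008939-109009238, minus strand: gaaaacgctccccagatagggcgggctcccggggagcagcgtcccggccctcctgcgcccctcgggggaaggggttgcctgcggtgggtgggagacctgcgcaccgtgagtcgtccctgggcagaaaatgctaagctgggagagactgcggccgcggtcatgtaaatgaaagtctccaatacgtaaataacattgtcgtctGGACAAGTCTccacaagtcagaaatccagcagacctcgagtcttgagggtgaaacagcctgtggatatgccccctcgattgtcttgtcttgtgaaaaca
FDXR, chr17:74872945-74873244, minus strand: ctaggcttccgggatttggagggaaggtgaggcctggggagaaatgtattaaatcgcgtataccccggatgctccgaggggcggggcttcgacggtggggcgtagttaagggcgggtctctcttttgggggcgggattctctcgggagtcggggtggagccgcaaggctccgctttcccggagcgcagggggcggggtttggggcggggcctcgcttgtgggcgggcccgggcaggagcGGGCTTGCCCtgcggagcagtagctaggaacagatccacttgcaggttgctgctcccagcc
PLK2, chr5:58460037-58460336, minus strand: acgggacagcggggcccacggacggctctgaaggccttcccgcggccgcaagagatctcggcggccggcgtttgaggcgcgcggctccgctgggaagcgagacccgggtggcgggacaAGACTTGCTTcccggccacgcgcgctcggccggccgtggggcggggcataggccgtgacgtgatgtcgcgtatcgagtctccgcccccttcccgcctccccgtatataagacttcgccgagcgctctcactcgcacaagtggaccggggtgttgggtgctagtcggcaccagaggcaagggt
In DDB2 the half-sites begin 5 and 16 bases after the start. The single half-sites begin 49 bases before the start in SESN1, 11 before it in FDXR and 132 before it in PLK2. For SESN1 this is a start inside the gene, which runs from 108986437 to 109094819 on the minus strand (GENCODE).

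Over the re-plating course, 10 of the 30 genes were called lower in VC+ than in VC- libraries and none higher. They were the cell cycle inhibitor CDKN1A, the death-related genes PHLDA3, TNFRSF10B, TP53INP1 and ZMAT3, the repair gene RRM2B, the redox and mitochondrial genes SESN1, SESN2 and FDXR, and the secreted factor GDF15. Over all genes, 5.87% of 16276 were called, 2.5% higher and 3.37% lower (edgeR's quasi-likelihood test with time as a factor, Benjamini-Hochberg adjusted p under 0.05). The log2 difference was negative for 27 of the 30, with a median of -0.29 against 0.01 for all genes. Of the 30, 15 were lower at all 5 times, where 8.72% of all genes were, and none was higher at all 5, where 8.86% of all genes were. The ranges of the 5 VC+ and the 5 VC- libraries overlapped for each of the 30, and levels also changed with time, while 0.866% of all genes had every VC+ library below every VC- library and 0.731% above. The spread behind these p-values is that of the difference among the 5 times, and cultures were not replicated. In bulk RNA fewer cells of a type and less RNA per cell cannot be told apart. CDKN1A, PHLDA3 and GDF15 were called again in each of 10 fits that left out 1 library. Leaving out 1 library also takes its partner of the same time out of the vitamin C difference. For that difference the 10 fits amount to leaving out each of 5 pairs. The other 7 lost the call in at least 1 such fit. The fewest of the 30, 5, were called without either 48 h library, where 2.92% (without VC-) and 2.94% (without VC+) of all genes were. Without either 36 h library 6 were called, where 2.99% of all genes were. Without a term for time none of the 30 was called.

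**Figure D1:**
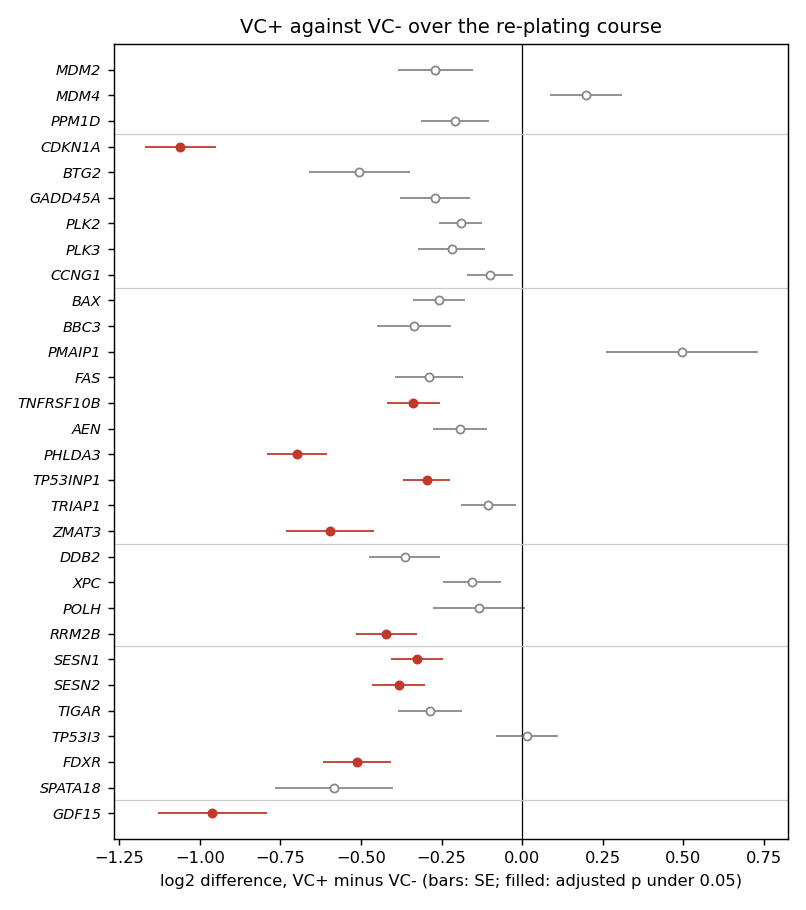
Log2 difference, VC+ minus VC-, over the 10 course libraries for each of the 30 genes, grouped by role from the p53 regulators at the top to the secreted GDF15 at the bottom. Points are edgeR estimates, bars are SE, and the 10 filled points, from -1.06 (CDKN1A) to -0.30 (TP53INP1), passed an adjusted p of 0.05.

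Marker genes of other cell types moved with vitamin C over the same libraries. Summed levels here are CPM of the library total. Of 11 leukocyte markers tested 7 were called higher in VC+, with summed levels of 270 to 521 CPM in VC+ and 238 to 329 CPM in VC- libraries. Of 10 mesenchymal markers 6 were called lower, with summed levels of 522 to 2247 CPM in VC+ and 929 to 2091 CPM in VC- libraries. Erythroid and megakaryocyte markers were called higher for 4 of 11, at 36.2 to 307 CPM in VC+ and 17.0 to 82.4 CPM in VC- libraries, and endothelial markers for 4 of 12, at 8907 to 11072 CPM in VC+ and 7872 to 9987 CPM in VC- libraries. Cell cycle genes moved too: of 12 replication genes 4 were called higher in VC+, where 2.5% of all genes were. Of 12 genes that p53 is known to lower through the DREAM complex, a repressor of cell cycle genes, none was called. Estimates were positive for 12 of 12 in both lists and for 8403 of 16276 genes in all. The part of these cell types or of dividing cells in the differences of the p53 genes was not tested.

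The regulators did not pass the test for vitamin C. MDM2 (ENSG00000135679, GRCh38 chromosome 12, 68808176 to 68850686), the ligase that marks p53 for degradation, had 81.5, 118, 131, 151 and 168 CPM in VC+ libraries from 0 to 60 h, against 154, 126, 127, 194 and 172 CPM in VC- libraries. The VC+ library was well below its partner at 0 and 48 h and within 10 CPM of it at the other times (log2 difference -0.27 ± 0.12, SE; edgeR, adjusted p = 0.238). MDM4, a relative of MDM2 that blocks p53's activation domain, had 41.8, 38.9, 44.4, 39.4 and 52.9 CPM in VC+ and 48.6, 36.1, 30.9, 37.0 and 37.6 CPM in VC- libraries, higher in VC+ at each time but 0 h (0.20 ± 0.11, adjusted p = 0.379). PPM1D, a phosphatase that switches off p53 signalling, lay at 21.98 to 32.0 CPM in VC+ and 26.5 to 39.1 CPM in VC- libraries (-0.21 ± 0.11, adjusted p = 0.33).

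Among genes of cell cycle arrest, the 1 called was CDKN1A (ENSG00000124762, chromosome 6, 36676460 to 36687339), which encodes p21, an inhibitor of cyclin-dependent kinases. It had 60.6, 90.4, 108, 168 and 198 CPM in VC+ libraries from 0 to 60 h, against 196, 150.0, 213, 316 and 399.9 CPM in VC- libraries. Each VC+ library was below the VC- library of its time, and the level rose after 24 h in both conditions (2.09-fold lower in VC+, log2 difference -1.06 ± 0.11; edgeR, adjusted p = 0.000187). BTG2, an antiproliferative regulator of mRNA decay, had 35.0, 20.1, 15.0, 22.7 and 22.8 CPM in VC+ and 77.3, 20.5, 14.2, 35.9 and 33.5 CPM in VC- libraries. The conditions lay close at 24 and 36 h and apart at the other times, and the gene was not called (-0.51 ± 0.16, adjusted p = 0.0859). GADD45A, a damage-induced brake on the G2 phase, lay at 40.9 to 62.8 CPM in VC+ and 52.0 to 82.0 CPM in VC- libraries (-0.27 ± 0.11, adjusted p = 0.194). The polo-like kinases PLK2 and PLK3, which take part in stress checkpoints, had differences of -0.19 ± 0.07 and -0.22 ± 0.10, and CCNG1, cyclin G1, which recruits a phosphatase to MDM2, one of -0.10 ± 0.07 (adjusted p = 0.129, 0.288 and 0.515).

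Of the death-related genes, 4 were called, all lower in VC+. PHLDA3, a repressor of the survival kinase AKT, had 20.5, 19.0, 18.9, 27.9 and 36.6 CPM in VC+ libraries from 0 to 60 h, against 38.4, 31.4, 31.6, 41.4 and 53.9 CPM in VC- libraries. It was lower in VC+ at each time, by a similar ratio throughout (log2 difference -0.70 ± 0.09; edgeR, adjusted p = 0.000948). TNFRSF10B, the death receptor DR5, had 237, 259, 253, 342 and 339.7 CPM in VC+ and 349.8, 268, 329, 373 and 505 CPM in VC- libraries, with the widest gaps at 0 and 60 h (-0.34 ± 0.08, adjusted p = 0.0311). ZMAT3, an RNA-binding protein that controls splicing and mRNA stability, had 45.0, 30.5, 34.5, 61.3 and 71.1 CPM in VC+ and 102, 29.7, 41.3, 95.9 and 123 CPM in VC- libraries. Its conditions were alike at 24 h and apart at 0, 48 and 60 h (-0.60 ± 0.14, adjusted p = 0.0241). TP53INP1, a partner of p53 in apoptosis and autophagy, had 144, 42.7, 66.3, 137 and 159 CPM in VC+ and 179, 52.6, 92.3, 160.2 and 178 CPM in VC- libraries, a small gap that kept its direction at each time (-0.30 ± 0.07, adjusted p = 0.0313).

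The classical mitochondrial death genes did not pass the test. BAX, which opens the outer mitochondrial membrane, had 124, 79.5, 93.1, 99.2 and 117 CPM in VC+ libraries, against 185, 89.8, 102, 109 and 139 CPM in VC- libraries, lower in VC+ at each time and most so at 0 h (log2 difference -0.26 ± 0.08; edgeR, adjusted p = 0.0899). BBC3, the BH3-only protein PUMA, lay at 12.9 to 21.2 CPM in VC+ and 14.3 to 28.8 CPM in VC- libraries (-0.33 ± 0.12, adjusted p = 0.122). PMAIP1, the BH3-only protein NOXA, had the most positive estimate of the 30 genes but did not pass (0.50 ± 0.24, adjusted p = 0.288). It had 6.12, 11.03, 13.6, 6.36 and 7.69 CPM in VC+ and 5.40, 6.04, 6.16, 8.86 and 4.83 CPM in VC- libraries, among the lowest levels here. The death receptor FAS (-0.29 ± 0.11), the nuclease AEN (-0.19 ± 0.08) and the apoptosis inhibitor TRIAP1 (-0.11 ± 0.09) were not called either, at adjusted p values of 0.151, 0.231 and 0.573.

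**Figure D2:**
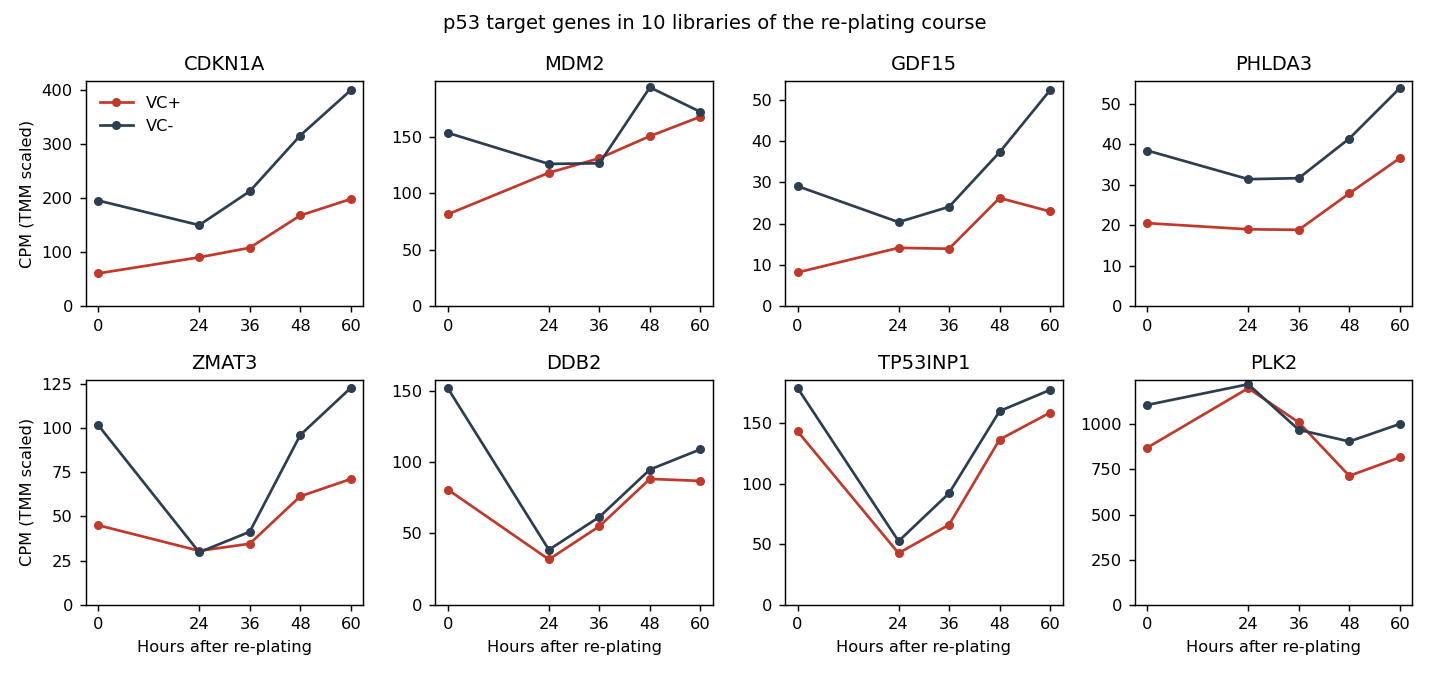
TMM-scaled CPM of 8 genes in the 10 libraries of the course, by hours after re-plating, with VC+ and VC- libraries in different colours and 1 library per point. CDKN1A, GDF15 and PHLDA3 were lower in VC+ at all 5 times, and ZMAT3, DDB2 and TP53INP1 had their lowest level at 24 h in both conditions.

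Of the DNA repair genes, RRM2B, a ribonucleotide reductase subunit that supplies nucleotides for repair, was called. It had 65.6, 59.2, 58.1, 72.8 and 84.7 CPM in VC+ libraries, against 105, 63.5, 67.3, 114 and 115 CPM in VC- libraries, lower in VC+ at each time (log2 difference -0.42 ± 0.09; edgeR, adjusted p = 0.0205). DDB2, which recognises ultraviolet damage in DNA, had 80.8, 31.8, 55.1, 88.3 and 86.9 CPM in VC+ and 152, 38.6, 61.6, 94.9 and 109 CPM in VC- libraries. It was lower in VC+ at each time, but the gap at 0 h was the widest by far and the gene was not called (-0.36 ± 0.11, adjusted p = 0.0757). The damage sensor XPC (-0.16 ± 0.09) and the translesion polymerase POLH (-0.13 ± 0.14) were not called (adjusted p = 0.401 and 0.686).

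Among metabolic and redox genes, the sestrins SESN1 and SESN2, which restrain mTORC1 and oxidative stress, were lower in VC+ at each time. SESN1 had 32.9, 25.3, 29.03, 35.9 and 48.9 CPM in VC+ libraries, against 41.8, 30.7, 37.1, 46.0 and 59.7 CPM in VC- libraries (log2 difference -0.33 ± 0.08; edgeR, adjusted p = 0.0333). SESN2 had 32.5, 22.2, 27.9, 38.3 and 46.4 CPM in VC+ and 41.3, 30.6, 38.2, 49.0 and 57.8 CPM in VC- libraries (-0.38 ± 0.08, adjusted p = 0.0158). DESeq2 did not call SESN1 (adjusted p = 0.0918). FDXR, the mitochondrial ferredoxin reductase, had 34.1, 28.2, 32.9, 33.6 and 44.8 CPM in VC+ and 64.9, 44.4, 39.3, 44.1 and 55.9 CPM in VC- libraries (-0.51 ± 0.11, adjusted p = 0.0132). SPATA18, a mediator of mitochondrial quality control, had a difference of similar size that did not pass (-0.58 ± 0.18, adjusted p = 0.0865), and its conditions were alike at 24 and 36 h. TIGAR, a phosphatase that restrains glycolysis, had a difference of -0.29 ± 0.10 (adjusted p = 0.128), and TP53I3, a quinone oxidoreductase, one of 0.01 ± 0.10 (adjusted p = 0.962).

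GDF15 (ENSG00000130513, chromosome 19, 18374731 to 18389176), a secreted stress hormone of the TGF-beta family, had 8.16, 14.1, 13.9, 26.2 and 22.9 CPM in VC+ libraries from 0 to 60 h, against 29.1, 20.3, 24.1, 37.3 and 52.3 CPM in VC- libraries. The VC+ library was the lower one at each time (1.95-fold lower, log2 difference -0.96 ± 0.17; edgeR, adjusted p = 0.00492).

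Over the 5 times the differences were not of equal size. The 30 genes were lower in VC+ for 28 at 0 h, 21 at 24 h, 22 at 36 h, 27 at 48 h and 27 at 60 h, with median log2 ratios of -0.52, -0.10, -0.15, -0.34 and -0.29. Of all genes 48.9% to 50.3% were lower at each time. At 0 h the log2 ratio was -1.77 for GDF15, -1.68 for CDKN1A, -1.17 for ZMAT3, -1.13 for BTG2 and -0.91 for both MDM2 and DDB2. At 24 h the ratios of these genes were -0.51, -0.73, 0.04, -0.02, -0.09 and -0.27. A test for a straight-line change of the vitamin C difference with hours called none of 16276 genes (0%) and none of the 30 (edgeR). At an unadjusted p under 0.05 it gave 473 genes and none of the 30, and DESeq2 called 11 genes and none of the 30. The direction of this slope was not stable for the 30 genes: without the VC- library of 0 h, 23 of them changed sign. A test of the 0 h difference against that of the 4 later times, added after seeing the data, called 1.26% of 17315 genes and called 0.549% with a lower difference at 0 h. Of the 30 genes it called 2, MDM2 and CDKN1A, both with the lower difference at 0 h.

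From 0 to 24 h, the step from the cells as plated to the re-plated culture, 14 of the 30 genes were called, 2 higher and 12 lower at 24 h. This is a time at which much of the transcriptome moved: 33.3% of all genes were called, 16.2% higher and 17.2% lower (edgeR's quasi-likelihood test with condition as a factor, Benjamini-Hochberg adjusted). The median log2 difference was -0.24 for the 30 genes and -0.02 for all. TP53INP1 had 42.7 CPM (VC+) and 52.6 CPM (VC-) at 24 h, against 144 and 179 CPM at 0 h, below both earlier libraries (3.39-fold lower, -1.76 ± 0.12, adjusted p = 9e-07). DDB2 had 31.8 CPM (VC+) and 38.6 CPM (VC-) at 24 h, against 80.8 and 152 CPM at 0 h (3.23-fold lower, -1.69 ± 0.18, adjusted p = 2.51e-05). CCNG1 had 195 CPM (VC+) and 191 CPM (VC-) at 24 h, against 502 and 515 CPM at 0 h (2.64-fold lower, -1.40 ± 0.11, adjusted p = 3.58e-06). In each of these genes the fall was seen in both conditions. BTG2 (-1.40 ± 0.24), ZMAT3 (-1.20 ± 0.22), SPATA18 (-1.03 ± 0.30), BAX (-0.85 ± 0.13), BBC3 (-0.81 ± 0.18), XPC (-0.68 ± 0.14), SESN2 (-0.49 ± 0.13), RRM2B (-0.44 ± 0.15) and SESN1 (-0.41 ± 0.13) were also called lower.

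The 2 genes called higher at 24 h were TP53I3 and PLK2. TP53I3 had 38.9 CPM (VC+) and 46.3 CPM (VC-) at 24 h, against 25.2 and 24.3 CPM at 0 h (0.79 ± 0.15; edgeR, adjusted p = 0.00192). PLK2 had 1199.5 CPM (VC+) and 1222 CPM (VC-), against 869.9 and 1107 CPM (0.30 ± 0.11, adjusted p = 0.0427), and lost the call without either 24 h library or without the VC+ library of 0 h (adjusted p = 0.316 without VC+ and 0.0524 without VC- at 24 h, and 0.182 for 0 h). CDKN1A, MDM2 and GDF15 went opposite ways in the 2 conditions, with log2 ratios of 0.57, 0.54 and 0.76 in VC+ and of -0.38, -0.28 and -0.50 in VC- cells, each between 2 single libraries and with no test. In all, 16 of the 30 genes were lower at 24 h in VC+ and 24 in VC- cells, where 51.2% of all genes were lower in each. Markers of other cells moved over this step too. Of 10 mesenchymal markers 5 were called lower at 24 h and 1 higher, with summed levels of 657 CPM (VC+) and 929 CPM (VC-) at 24 h, against 2247 and 2091 CPM at 0 h. Endothelial markers were called higher for 7 of 12 and lower for 2, genes that p53 is known to lower through the DREAM complex, a repressor of cell cycle genes, lower for 3 of 12, and replication genes higher for 4 of 12. Their part in the change of the p53 genes was not tested. Without the VC- library of 24 h, which leaves 1 library at 24 h, the median was -0.22 for the 30 genes and -0.04 for all. Without the VC- library of 0 h, which leaves 1 library at 0 h, these medians were -0.03 and -0.01.

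Between 24 and 60 h, within the re-plated culture, 19 of the 30 genes were called, 18 higher and 1 lower at 60 h. Of all genes 23.5% were called, 12.1% higher and 11.4% lower (edgeR, same fit), and the median log2 difference was 0.62 for the 30 genes and 0.02 for all. This comparison shares its 24 h libraries with the one before, so a gene that was low at 24 h enters both. TP53INP1 had 159 CPM (VC+) and 178 CPM (VC-) at 60 h, against 42.7 and 52.6 CPM at 24 h (3.55-fold higher, 1.83 ± 0.12, adjusted p = 2.17e-06). SPATA18 had 19.3 CPM (VC+) and 32.6 CPM (VC-) at 60 h, against 7.30 and 6.30 CPM (3.71-fold higher, 1.89 ± 0.29, adjusted p = 0.000774). CDKN1A had 198 CPM (VC+) and 399.9 CPM (VC-) at 60 h, against 90.4 and 150.0 CPM (2.42-fold higher, 1.27 ± 0.17, adjusted p = 0.00033). In these genes both 60 h libraries were above both 24 h libraries. ZMAT3 (1.63 ± 0.22), DDB2 (1.48 ± 0.18), GDF15 (1.06 ± 0.27), SESN2 (0.99 ± 0.13), SESN1 (0.96 ± 0.13), CCNG1 (0.95 ± 0.11), FAS (0.86 ± 0.17), PHLDA3 (0.86 ± 0.15) and BBC3 (0.78 ± 0.19) were called higher too. The others called higher were RRM2B, TIGAR, TNFRSF10B, BAX, XPC and FDXR, from 0.69 ± 0.15 (RRM2B) down to 0.49 ± 0.17 (FDXR).

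**Figure D3:**
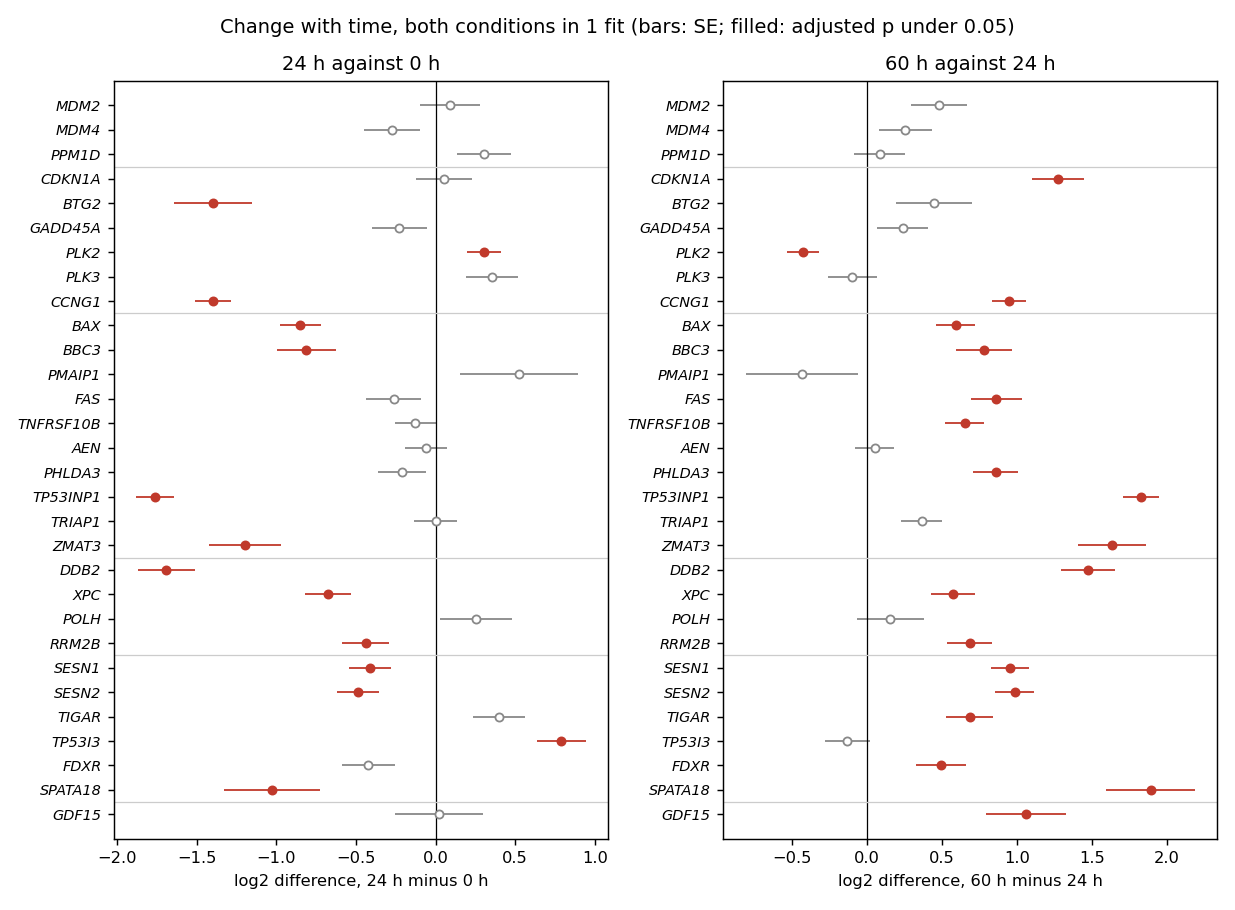
Log2 difference with time for each of the 30 genes, 24 h minus 0 h on the left and 60 h minus 24 h on the right, from 1 edgeR fit over both conditions. Bars are SE, filled points passed an adjusted p of 0.05: 14 on the left, 12 of them below 0, and 19 on the right, 18 of them above 0.

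PLK2 was the only one of the 30 genes called lower at 60 h, with 816 CPM (VC+) and 1002 CPM (VC-) at 60 h, against 1199.5 and 1222 CPM at 24 h (-0.42 ± 0.11; edgeR, adjusted p = 0.0124). The call was lost without the VC+ library of 24 h (adjusted p = 0.146) or that of 60 h (adjusted p = 0.0877). In each condition by itself 26 of the 30 genes were higher at 60 h and 4 lower, with median log2 ratios of 0.53 in VC+ and 0.70 in VC- cells. The regulators were not called: MDM2 was 0.48 ± 0.19 (adjusted p = 0.0805), MDM4 0.26 ± 0.18 and PPM1D 0.09 ± 0.17. Without the VC- library of 24 h, which leaves 1 library at 24 h, the median was 0.52 for the 30 genes and 0.02 for all. Of the 19 genes, 10 were called in each of the 10 fits that left out 1 library.

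Blood cell and cell cycle genes moved over the same step. Of the 12 DREAM genes, such as FOXM1 (-1.14 ± 0.12) and BIRC5 (-1.50 ± 0.15), all 12 were called lower at 60 h, and of 12 replication genes 11 were, such as CDC6 (-1.36 ± 0.14). Erythroid and megakaryocyte markers were called higher for 8 of 11 and leukocyte markers for 5 of 11. The part of dividing or blood cells in the change of the p53 genes was not tested.

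In the sorted cells, none of the 30 genes passed the test for vitamin C, and none of 14421 genes did (0%; limma on log2(TPM + 1), Benjamini-Hochberg adjusted, with 2 libraries per condition). At an unadjusted p under 0.05 there were 313 genes. The 3 of the 30 among them were MDM2, ZMAT3 and TNFRSF10B. MDM2 had 33.4 and 44.1 TPM in VC+ replicates 1 and 2, against 95.3 and 66.0 TPM in VC- replicates 1 and 2 (log2 difference -1.03 ± 0.31, SE; limma, adjusted p = 1). ZMAT3 had 8.11 and 8.74 TPM in VC+, against 21.9 and 15.8 TPM in VC- replicates (-1.06 ± 0.36, adjusted p = 1). TNFRSF10B had 122 and 161 TPM in VC+, against 222 and 228 TPM in VC- replicates (-0.68 ± 0.25, adjusted p = 1). In all 3 genes both VC+ libraries were below both VC- libraries.

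Both VC+ libraries lay below both VC- libraries for 11 of the 30 genes, where 19.3% of all genes did, and above them for none, where 9.09% did. Within both replicate numbers VC+ was lower for 14 of the 30, where it was for 35.9% of all genes. The 11 were MDM2, FAS, SESN1, ZMAT3, RRM2B, DDB2, XPC, POLH, TNFRSF10B, SPATA18 and FDXR. The estimate was negative for 25 of the 30 and for 8600 of all 14421 genes tested, with medians of -0.40 and -0.09. CDKN1A, the gene with the largest difference over the course, had 49.0 and 217 TPM in VC+, against 270 and 210 TPM in VC- replicates. GDF15 had 6.56 and 81.6 TPM in VC+, against 50.7 and 74.9 TPM in VC- replicates. For both genes VC+ replicate 1 was far below the other 3 libraries and VC+ replicate 2 was above at least 1 VC- library. AEN shared this form, at 15.9 and 52.96 TPM in VC+ and 48.9 and 48.6 TPM in VC- replicates. DDB2 had 54.5 and 147 TPM in VC+ and 159 and 158 TPM in VC- replicates, so that VC+ replicate 2 was only slightly below both VC- libraries. VC+ replicate 1 also stood apart outside the p53 genes. It was below the other 3 libraries for 22 of the 30 genes, for 12 of 12 genes lowered by p53 through the DREAM complex, for 10 of 12 replication genes and for 28.3% of all genes tested. The 12 DREAM genes summed to 465 and 2562 TPM in VC+ replicates 1 and 2, against 2166 and 2400 TPM in VC- replicates 1 and 2. The part of dividing cells in the low values of that library was not tested. Without VC+ replicate 1 the median of the 30 genes was -0.12, and that of all genes -0.16. Grouped by the descriptions in place of the titles, the 30 genes had a median of 0.10 and none was called, with 156 genes called in all (1.08%).

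**Figure D4:**
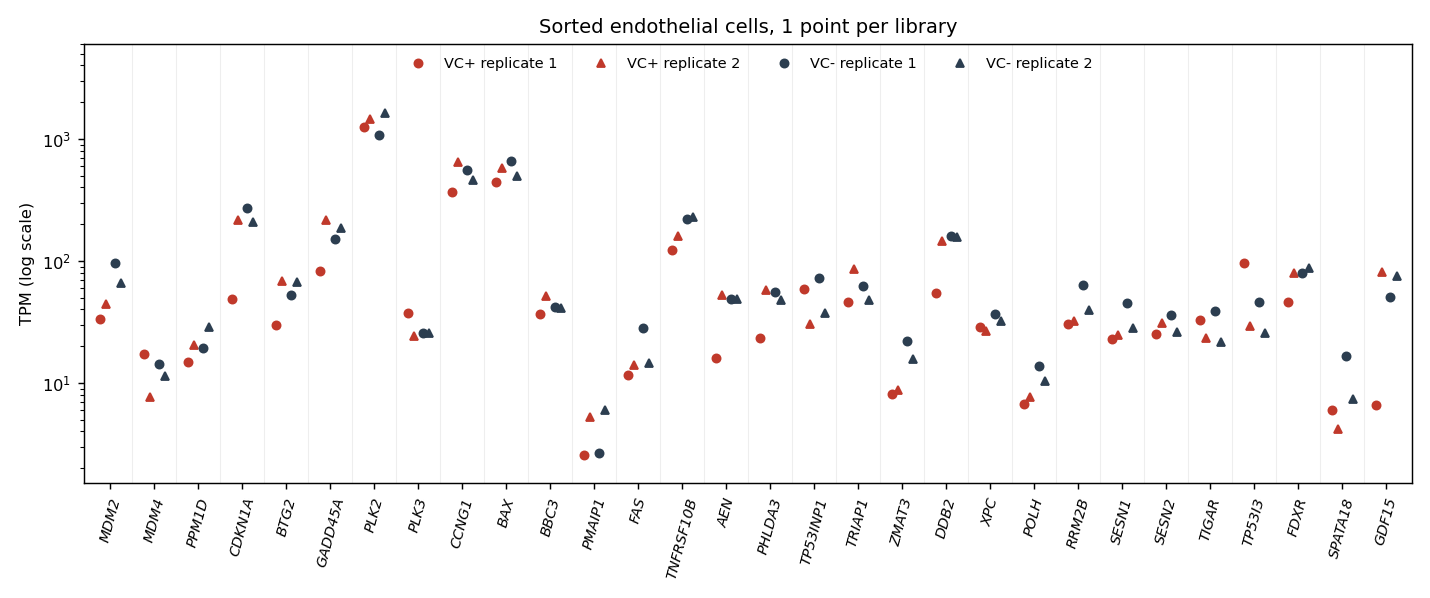
TPM of the 30 genes in the 4 libraries of sorted cells on a log axis, grouped by role from the regulators on the left to GDF15 on the right, VC+ replicates left of VC- replicates. For CDKN1A, GDF15, AEN and DDB2 the lowest point is VC+ replicate 1, and for MDM2 and ZMAT3 both VC+ points are the lowest.

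Levels differed widely among the 30 genes. In sorted cells PLK2 was the most abundant, with a mean of 1355 TPM over the 4 libraries, followed by BAX (545 TPM) and CCNG1 (510 TPM), whose ranges overlapped each other. PMAIP1 was the lowest (4.11 TPM), then SPATA18 (8.53 TPM) and POLH (9.61 TPM). In the course, as a mean of CPM per kilobase of exon, PLK2 again stood first (206), then CCNG1 (107), TNFRSF10B (63.1) and CDKN1A (62.3). SPATA18 (2.86), PMAIP1 (3.41) and MDM4 (3.70) were the lowest.

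Suspended cells are those in suspension in the VC+ cultures, and adherent cells those on the plate. At 60 h the 12 endothelial markers summed to 2351 CPM in suspended and 11081 CPM in adherent cells. The 12 leukocyte markers summed to 1770 and 297 CPM. At 60 h 7 of the 30 genes were at least 2-fold lower in suspended than in adherent cells and 1 at least 2-fold higher, where 15.7% and 14.3% of 16562 genes were. With 1 library each there is no test, and the intervals below are exact 95% Poisson intervals, for counting error alone. PLK2 was at 132 CPM (124 to 141) in suspended and 921 CPM (900.5 to 942) in adherent cells, 6.94-fold lower. TIGAR was at 5.89 CPM (4.23 to 7.99) in suspended and 33.0 CPM (29.2 to 37.2) in adherent cells, 5.24-fold lower. SPATA18 was at 5.75 CPM (4.11 to 7.83) in suspended and 22.4 CPM (19.3 to 25.9) in adherent cells, 3.67-fold lower. None of these intervals overlapped between the libraries. CDKN1A was at 102 CPM (94.96 to 110.1) in suspended and 228 CPM (217 to 238) in adherent cells. FAS, PHLDA3 and PLK3 were the others past 2-fold, at log2 ratios of -1.38, -1.31 and -1.16, and DDB2 and TNFRSF10B lay just inside, at -0.99 each.

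GDF15 went the other way, at 45.1 CPM (40.3 to 50.4) in suspended and 18.6 CPM (15.8 to 21.8) in adherent cells, 2.39-fold higher. MDM2 was at 143 CPM (134 to 152) in suspended and 155 CPM (147 to 164) in adherent cells, intervals that overlap. The median log2 ratio of the 30 genes was -0.36 and that of all genes 0.13. TMM scaling over the 13 libraries shifted the median of all genes by -0.12, and 10 of the 30 were then at least 2-fold lower and 1 higher, where 17.4% and 12.1% of all genes were. Endothelial markers were at least 2-fold lower in suspended cells for 12 of 12 and leukocyte markers at least 2-fold higher for 12 of 12. Erythroid and megakaryocyte markers were at least 2-fold higher for 11 of 11, replication genes for 8 of 12 and DREAM genes for 4 of 12. A change within cells and a difference in cell type cannot be told apart.

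**Figure D5:**
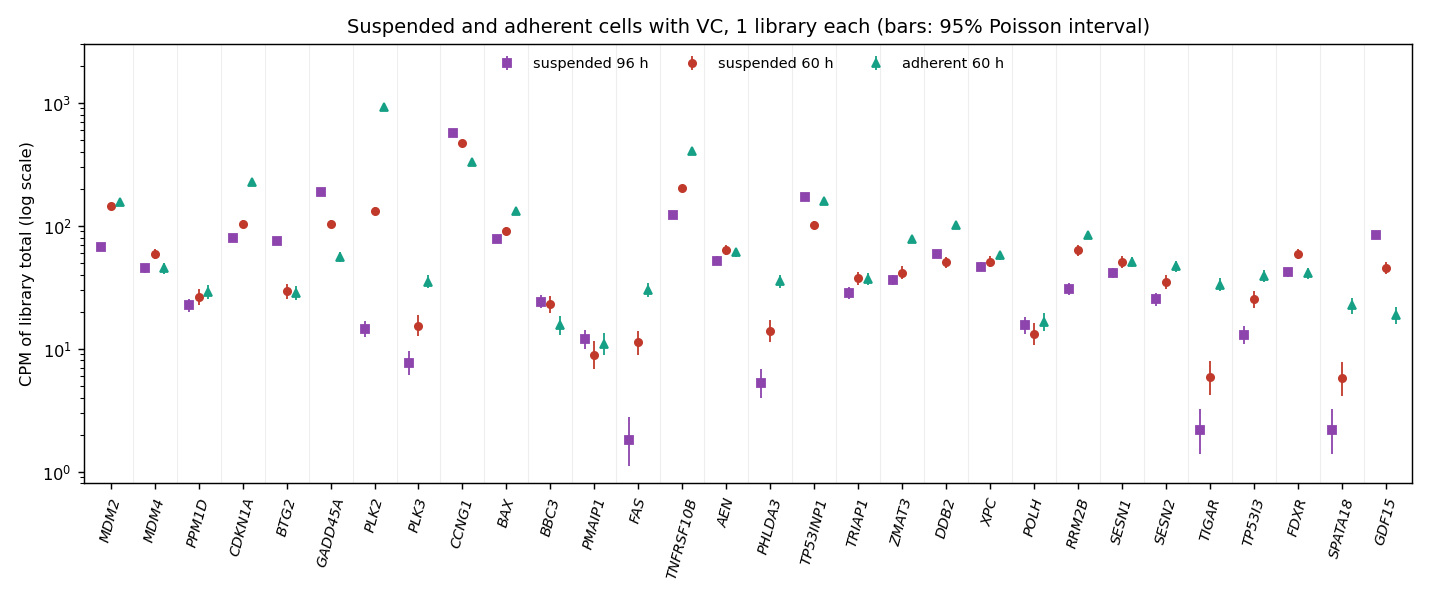
CPM of the library total for the 30 genes on a log axis in 3 libraries of VC+ cultures, from left to right suspended at 96 h, suspended at 60 h and adherent at 60 h, with exact 95% Poisson intervals. PLK2, TIGAR and SPATA18 are lower in both suspended libraries than in adherent cells, and GDF15 is higher in both.

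From 60 to 96 h in suspended cells, 7 of the 30 genes were at least 2-fold lower at 96 h and 1 at least 2-fold higher, where 13.4% and 7.15% of 16303 genes were. PLK2 was at 14.5 CPM (12.3 to 16.9) at 96 h and 132 CPM (124 to 141) at 60 h, 8.88-fold lower. FAS was at 1.81 CPM (1.10 to 2.79) at 96 h and 11.2 CPM (8.86 to 14.0) at 60 h, 5.07-fold lower. MDM2 was at 67.6 CPM (62.8 to 72.6) at 96 h and 143 CPM (134 to 152) at 60 h, 2.11-fold lower. PHLDA3, RRM2B, SPATA18 and TIGAR were the others, at log2 ratios of -1.33, -1.03, -1.23 and -1.26. BTG2 was at 75.2 CPM (70.2 to 80.5) at 96 h and 29.3 CPM (25.4 to 33.6) at 60 h, 2.54-fold higher, and GADD45A (186 against 103 CPM) and GDF15 (83.3 against 45.1 CPM) were higher by less than 2-fold. The median log2 ratio was -0.32 for the 30 genes and -0.19 for all. TMM scaling shifted the median of all genes by 0.20: GDF15 and GADD45A were then also at least 2-fold higher, and MDM2 and RRM2B no longer 2-fold lower. That left 5 of the 30 lower and 3 higher, where 10.7% and 9.04% of all genes were. Erythroid and megakaryocyte markers were at least 2-fold higher at 96 h for 12 of 12, and endothelial markers for 1 and at least 2-fold lower for 7 of 12. Of 10 mesenchymal markers 7 were at least 2-fold lower. Here too a change within cells and a difference in cell type cannot be told apart.

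Of 18 tested genes of the p53 family and the kinases and ligases above p53, 1 was called for vitamin C, near the 5.87% of all genes. It was HIPK2, a kinase that phosphorylates p53, which was higher (log2 difference 0.54 ± 0.08; edgeR, adjusted p = 0.00272), at 172 to 428 CPM in VC+ and 97.3 to 320.0 CPM in VC- libraries. Of 26 tested p53 targets outside the 30, 5 were called lower in VC+ and none higher (median -0.22), where 3.37% and 2.5% of all genes were. The 5 included the membrane protein PERP (-0.62 ± 0.11), CYFIP2 (-0.61 ± 0.13), NINJ1 (-0.55 ± 0.11), which ruptures the membrane of dying cells, and the lipid transfer protein PLTP (-0.39 ± 0.08). The largest adjusted p among the 5 called was 0.0146.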

How the data were processed

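Per the labels' protocols, RNA was extracted with Trizol and sequencing libraries were prepared with a TruSeq kit. Without giving roles, the submitters' processing notes list DESeq 1.18.1, HTSeq 0.6.0, SAMtools 1.3.1, HISAT2 2.0.4 and the builds GRCh38 and hg38. The authors deposited raw read counts for the course, adherent and suspended libraries, and for the sorted cells scaled values read as TPM, whose making is not given in the sources used here. The deposited TPM tables hold no depth.

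Groups follow the sample titles. Gene positions are from GENCODE release 29 (GRCh38). The 10 course libraries were fitted in edgeR 4.0.16 with condition and time as factors (TMM, filterByExpr, quasi-likelihood F test). TPM values were tested with limma 3.58.1 (R 4.3.3, trend) as log2(TPM + 1), for genes at 1 TPM or more in 2 libraries, which understates changes of low genes. Tests were two-sided, adjusted over all genes, and checked on simulated data. Course CPM of single genes are TMM scaled. Summed marker levels and CPM of the suspended and adherent libraries are of the library total, with 0.5 CPM added in ratios and exact Poisson intervals at 95%, which cover counting error only, since reads are not independent molecules. No p-value was computed between single libraries.

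The members and gene lists were chosen with earlier results of these data known. All 30 members could be named, as could measured genes of the p53 family and its kinases and ligases, and up to 4 of each other list with the smallest p in a comparison. Outside this rule NINJ1 was chosen after its values were seen, and PTPRC, NANOG and SOX2 were named though too low to be tested. Some listed genes are not reported here. Alternatives were DESeq2 1.42.0, its size factors, no filter, other pseudocounts (0.1 and 5 TPM, 5 CPM), TMM over 13 libraries, totals without mitochondrial genes, leaving out each library or the 0 h pair, no term for time, ranks of time, a replicate block and the descriptions' groups.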

Additional observations from a re-analysis of the deposited data

Results flagged for a closer look

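At 0 h the vitamin C difference of MDM2 and CDKN1A was larger than at the later times. This test was added after seeing the data: it set the difference of the 0 h pair against that of the 4 later pairs. For MDM2 the log2 difference was lower at 0 h by a further -0.80 ± 0.18 (SE; edgeR, adjusted p = 0.0343), with 81.5 CPM in VC+ and 154 CPM in VC- cells at 0 h and 118 to 168 CPM in VC+ and 126 to 194 CPM in VC- cells later. For CDKN1A it was lower by a further -0.78 ± 0.16 (adjusted p = 0.0212). DESeq2 called the same 2 of the 30 genes (adjusted p = 0.0376 and 0.0163). Over all genes edgeR called 218 of 17315 (1.26%) and DESeq2 145 (0.837%). The estimate was negative for 27 of the 30 genes and for 49.9% of all, with medians of -0.37 and 0.00. The 0 h difference rests on 1 library per condition, so no library of it can be left out, and a difference of those 2 libraries and one of 0 h cells cannot be told apart.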

How the results depend on the processing

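Leaving out 1 library at a time, the members called lower over the course numbered 5 to 10, those called higher at 24 h 1 to 6 and lower 6 to 13, and those called higher at 60 h 11 to 19 and lower 0 to 1; all members called with every library kept their sign in these fits. Without a term for time none of the 30 was called (0, with 28 genes in all). For vitamin C, DESeq2 called 9 of the 30 and 5.5% of all genes, no filter 15 and 5.13%, and the fit without both 0 h libraries the same 10 and 7.48%. All genes called numbered 505 to 1209 for vitamin C, 2961 to 5492 for 24 h and 1734 to 4541 for 60 h without 1 library, and 1591 for vitamin C without a filter. At 96 h against 60 h, 3 of the 30 were at least 2-fold higher with TMM scaling and 3 at least 2-fold lower with 5 CPM added. In sorted cells the titles tie same-numbered VC+ and VC- libraries by the number only, and the main test had no replicate block. The deviations of same-numbered libraries nevertheless correlated at 0.565 over 14421 genes. A replicate block called 0 genes, with 1237 at an unadjusted p under 0.05, against 313 without it (limma). Grouping by the descriptions called 156 genes. The causes were not tested. At 6214675 to 11058345 reads, low genes such as PMAIP1 rest on few counts.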
